A study of Mus musculus with 6 samples.

Results

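The genes described here are the nucleolar ribosome biogenesis genes, 48 protein-coding genes named by symbol and found among the 55487 gene rows of each file. RNA sequencing of polyadenylated transcripts gave their levels in naive CD4+ T cells, T cells that have not yet met their antigen. The cells came from the mesenteric lymph nodes (mLN, the nodes draining the gut; 3 libraries) and from the spleen (3 libraries) of wild-type C57BL6/J mice that had received no treatment. The labels give no age, no sorting gate and no word on whether replicates were separate animals. The p-values therefore cover only variation among the 6 libraries, and that variation could be technical. All 48 genes passed the filter on low counts, and their names were matched through the gene identifiers.

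Ribosomes are assembled in the nucleolus, where RNA polymerase I (Pol I) transcribes the ribosomal DNA into a long precursor. Small nucleolar ribonucleoproteins (snoRNPs) guide the modification of this precursor, a large particle called the small subunit processome cuts and folds its front part, and a separate chain of assembly factors matures the large subunit. Resting T cells run this machinery at a low rate and raise it steeply after activation, when MYC, a transcription factor of cell growth, is induced.

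The expected counts summed to between 13205499 and 20054205 per library, and a floor of 3 counts over those totals corresponded to 0.150 to 0.227 CPM before adjustment, for counting error only. All other CPM values (counts relative to the library total) are adjusted by edgeR's TMM factors. Markers of T cells summed to 4873 to 4945 CPM in mLN libraries and 5578 to 5697 CPM in spleen libraries. Of 10 tested, 6 were called lower and 1 higher. Markers of naive T cells summed to 4536 to 4636 CPM in mLN libraries and 4785 to 4952 CPM in spleen libraries. Of 7 tested, 3 were called lower and 2 higher. Markers of several other cell types were lower in the mLN libraries. Sums for CD8 T cells overlapped (12.5 to 20.4 CPM in mLN libraries and 16.1 to 17.8 CPM in spleen libraries). So did those for regulatory T cells (4.48 to 8.03 CPM in mLN libraries and 6.99 to 8.63 CPM in spleen libraries), erythroid cells and platelets. Those for memory or effector T cells were 80.4 to 90.3 CPM in mLN libraries and 74.2 to 77.9 CPM in spleen libraries. Neutrophil markers summed to 0.225 to 1.19 CPM in mLN libraries and 32.2 to 38.5 CPM in spleen libraries, with 6 of 6 tested markers called lower and Ly6g at 0 in every library. Monocyte and macrophage markers summed to 2.93 to 3.92 CPM in mLN libraries and 34.2 to 38.7 CPM in spleen libraries (5 of 5 tested called lower), and B cell markers to 348 to 374 CPM in mLN libraries and 510 to 546 CPM in spleen libraries (7 of 9 tested called lower). The part of these cells in the results was not tested, and in bulk RNA a smaller number of expressing cells and less RNA per cell cannot be told apart.

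Of the 48 nucleolar genes, 19 were higher in mLN cells and 6 were lower at an adjusted p below 0.05 (edgeR's quasi-likelihood test, adjusted by Benjamini-Hochberg across 12486 tested genes), and 23 did not pass. The same test called 16.1% of all tested genes higher and 13.5% lower, 29.6% in either direction. Pprc1, Tcof1, Urb1, Nol6 and Mybbp1a rose by at least 1.5-fold, 5 of 48 genes, against 7.05% of all tested genes that were called with such a fold in either direction. The lower genes were Npm1, Polr1c, Wdr12, Utp4, Nip7 and Pes1. The median log2 fold change (mLN over spleen) was 0.15 over the 48 genes and -0.01 over all tested genes. On the CPM scale, every mLN library exceeded every spleen library for 21 of the 48 genes (21.5% of all tested genes), and every mLN library lay below every spleen library for 8 (20.3% of all tested genes).

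**Figure D1:**
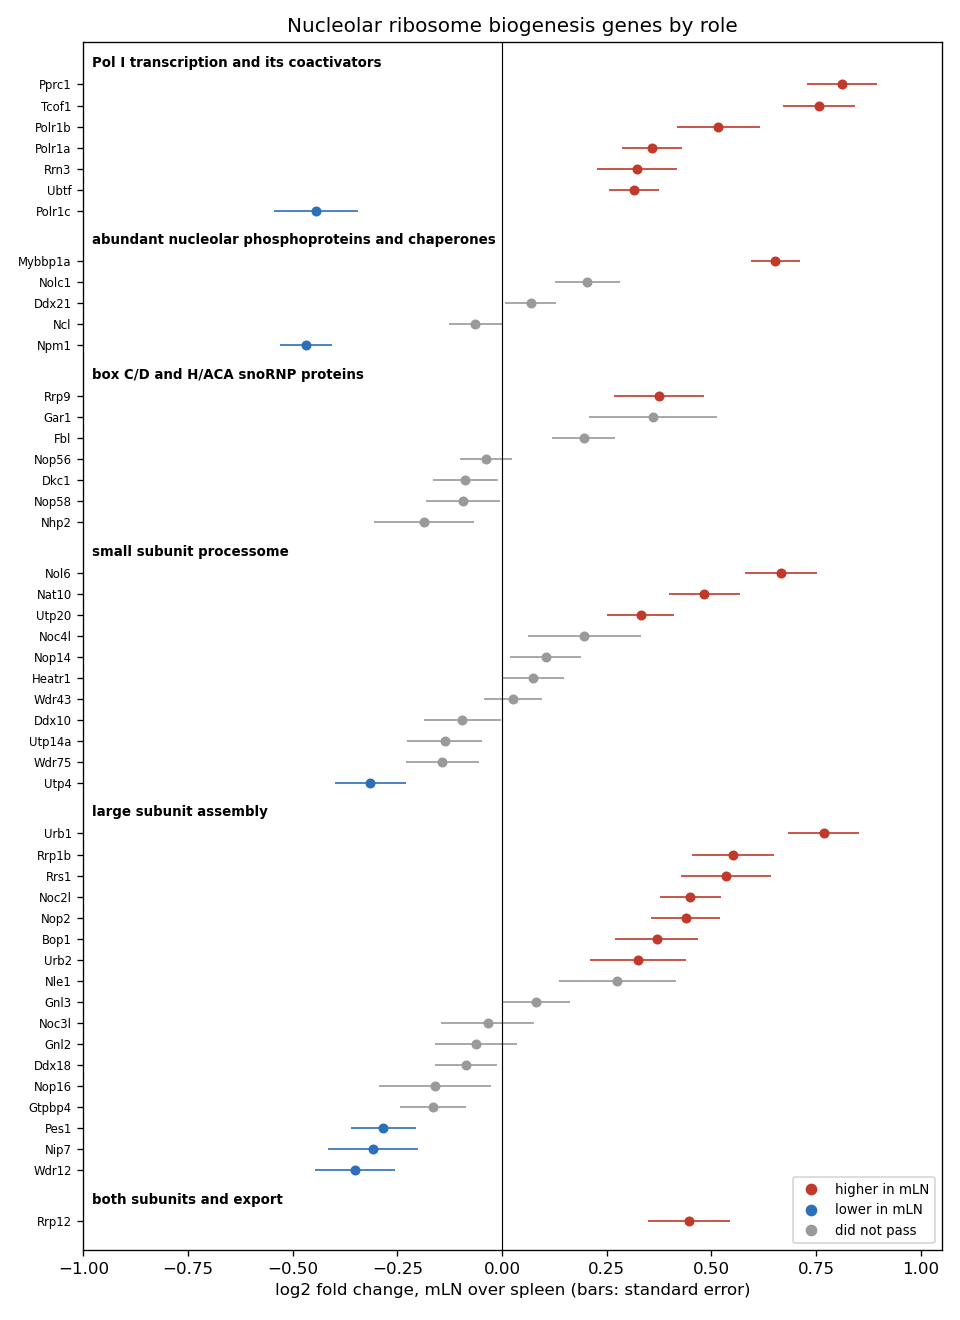
Log2 fold change (mLN over spleen) with its standard error for each of the 48 genes, ordered by role, with red for genes called higher, blue for genes called lower and grey for genes that did not pass. In the Pol I set 6 of 7 genes are called higher and Polr1c lower, whereas 6 of 7 snoRNP proteins are grey. Of all tested genes 16.1% are called higher and 13.5% lower.

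The genes together took 0.645%, 0.648% and 0.630% of all counts in the 3 mLN libraries, against 0.605%, 0.594% and 0.583% in the 3 spleen libraries. The lowest mLN library therefore lay above the highest spleen library, with means of 0.641% ± 0.00956 in mLN cells and 0.594% ± 0.0113 in spleen cells (SD, n = 3 each), a ratio of 1.08. Npm1, the gene with the highest TPM of the 48, moved against this sum, and without it the share was 0.572% in mLN cells and 0.4995% in spleen cells. Calculated from TPM (abundances scaled by gene length and to a fixed total), the 48 genes held 0.451% ± 0.0110 in mLN cells and 0.380% ± 0.00978 in spleen cells. On log2(TPM + 1) the median log2 fold change was 0.41 over the 48 genes and 0.21 over all tested genes. Cytosolic ribosomal protein genes held 28.6% of TPM in mLN cells and 33.4% in spleen cells, and their part in these shares was not tested. Taken gene by gene, the median deviation of log2 CPM from each gene's mean over the 6 libraries was 0.06, 0.09 and 0.08 in mLN replicates 1 to 3 and -0.09, -0.05 and -0.07 in spleen replicates 1 to 3. The median coefficient of variation between replicates was 5.92% in mLN libraries and 7.15% in spleen libraries.

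**Figure D2:**
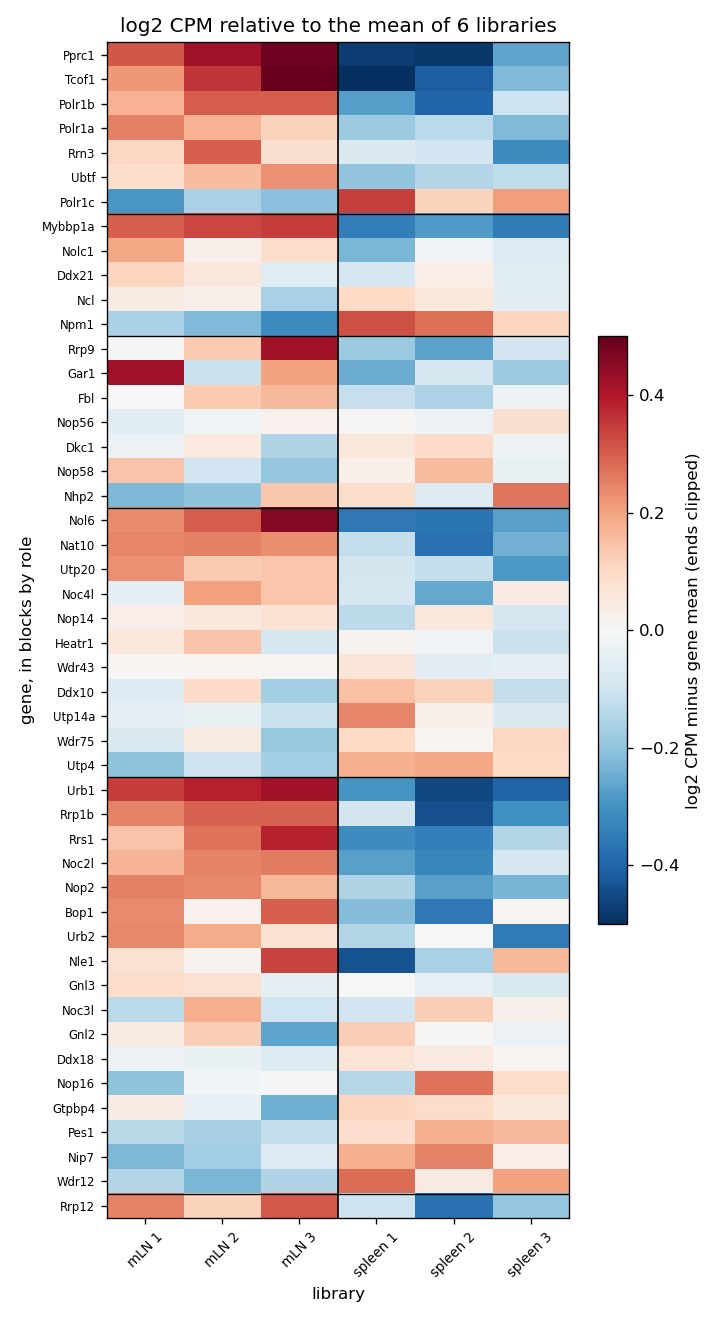
Log2 CPM of each of the 48 genes minus that gene's mean over the 6 libraries, with mLN libraries on the left, spleen libraries on the right, genes ordered by role and colours clipped at ±0.5. Tcof1, Pprc1 and Urb1 are high in all mLN libraries, and Npm1 and Polr1c are high in all spleen libraries.

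In the Pol I transcription set all 7 genes passed the test, 6 of them higher and 1 lower in mLN cells. Of all tested genes 16.1% were higher and 13.5% lower. With the length trend removed 4 were higher and 1 lower (11.4% and 12.1% of all tested genes). On centred TPM 3 were higher and 1 lower (6.39% and 7.58% of all tested genes). Its members Polr1a and Polr1b encode the catalytic subunits of Pol I. Polr1a had 155, 147 and 140 CPM in mLN libraries, against 114, 118 and 111 CPM in spleen libraries, a 1.28-fold rise (log2 fold change 0.36, SE 0.0725, edgeR adjusted p = 6.81e-04). Polr1b had 57.5, 62.8 and 62.9 CPM in mLN libraries, against 42.1, 38.6 and 47.4 CPM in spleen libraries, a 1.43-fold rise (log2 fold change 0.52, SE 0.0992, edgeR adjusted p = 4.17e-04). Neither gene overlapped between the groups, but the call of Polr1a was lost with the length trend removed (log2 fold change 0.14, adjusted p = 0.16). The third listed subunit gene, Polr1c, whose product is shared by Pol I and RNA polymerase III (Pol III), went the other way. Polr1c had 37.9, 41.5 and 40.2 CPM in mLN libraries, against 58.9, 50.2 and 53.8 CPM in spleen libraries, so all mLN values were lower (log2 fold change -0.44, SE 0.0996, edgeR adjusted p = 0.0017). Polr1c lies on chromosome 17 at 46243920 to 46248054 (GRCm38). Its transcript length averaged 1238 nt in these files, where that of Polr1a averaged 5247 nt.

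Among the factors that bring Pol I to the ribosomal DNA, Ubtf, which binds and opens its promoter, had 298, 312 and 328 CPM in mLN libraries, against 245, 253 and 257 CPM in spleen libraries (1.24-fold, log2 fold change 0.32, SE 0.0605, edgeR adjusted p = 4.14e-04). Rrn3, which links the polymerase to promoter-bound factors, had 63.4, 72.6 and 62.3 CPM in mLN libraries, against 56.0, 55.1 and 47.4 CPM in spleen libraries (log2 fold change 0.32, SE 0.0956, edgeR adjusted p = 0.0136). The groups did not overlap for either gene, but the call of Rrn3 was lost without mLN replicate 2 (edgeR adjusted p = 0.103) or without spleen replicate 3 (0.0802). Tcof1 encodes treacle, a nucleolar phosphoprotein that supports ribosomal DNA transcription and is mutated in a human craniofacial syndrome. Tcof1 (chromosome 18, 60813755 to 60848971) had 237, 261 and 300 CPM in mLN libraries, against 144, 153 and 175 CPM in spleen libraries, and every mLN value was above every spleen value (1.69-fold, log2 fold change 0.76, SE 0.0854, edgeR adjusted p = 2.40e-06). Pprc1, a coactivator related to PGC-1 and known for mitochondrial biogenesis, showed the largest rise of the 48 genes. Pprc1 (chromosome 19, 46044886 to 46072915) had 130, 141 and 148 CPM in mLN libraries, against 75.8, 75.3 and 87.7 CPM in spleen libraries (1.76-fold, log2 fold change 0.81, SE 0.0833, edgeR adjusted p = 3.24e-07). It overlaps Ldb1 on the opposite strand over 329 nt. The libraries were made with a directional kit, but how strand was set in the counting is not given in the labels. The Pol I set as a whole took 0.104% of counts in mLN cells and 0.0745% in spleen cells, a ratio of 1.40.

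**Figure D3:**
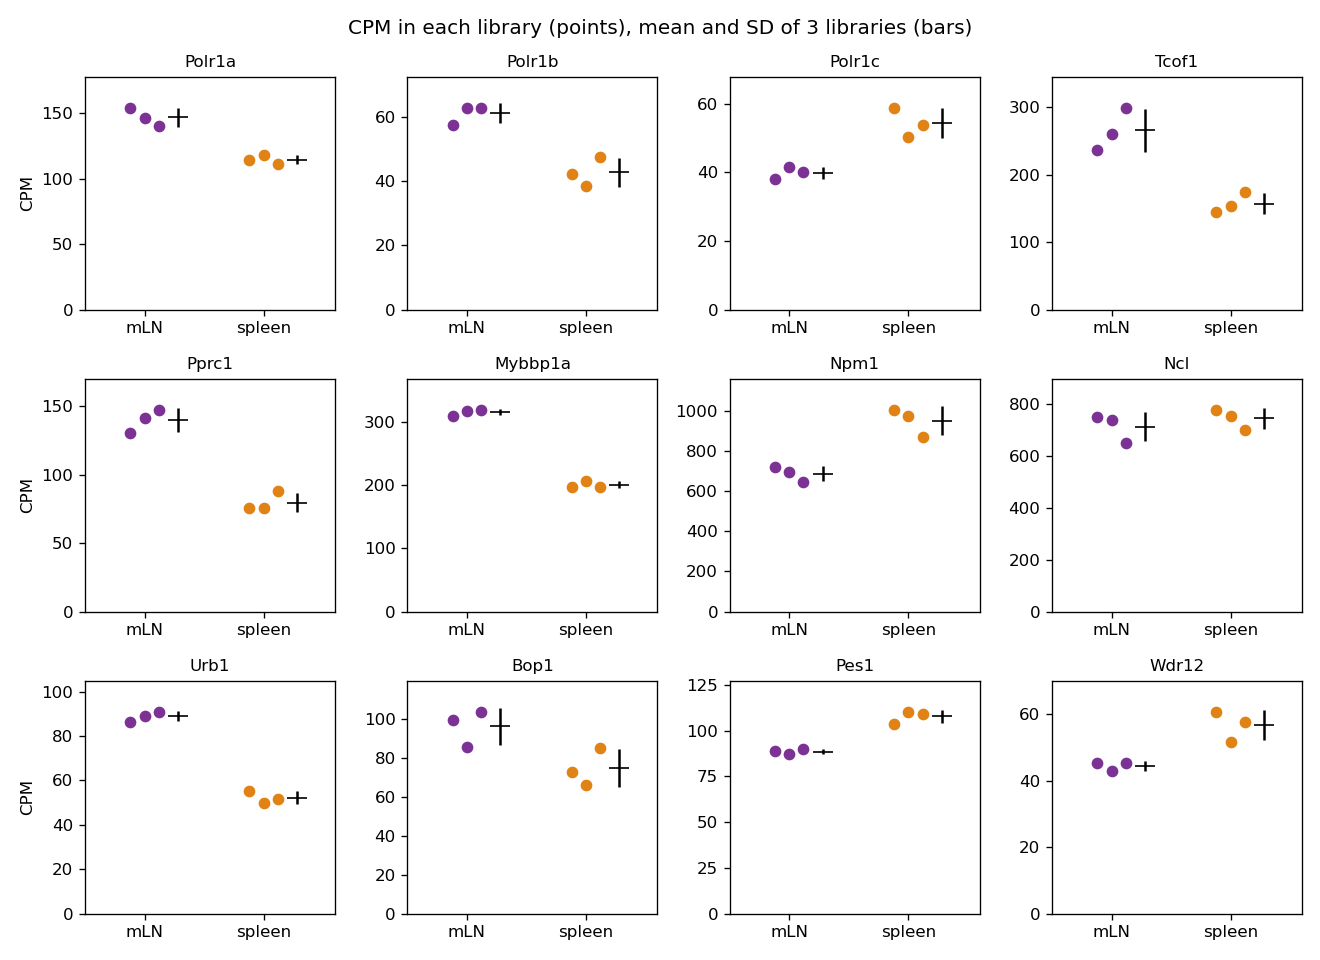
CPM of 12 of the genes in each library, with mLN libraries left of spleen libraries in each panel, one point per library. The panels contrast genes that are high in mLN libraries (Polr1a, Polr1b, Tcof1, Pprc1, Mybbp1a, Urb1, Bop1) with genes that are high in spleen libraries (Polr1c, Npm1, Pes1, Wdr12), and Ncl, whose groups overlap.

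Of the 5 genes of abundant nucleolar proteins, 1 was higher, 1 was lower and 3 did not pass, where 16.1% of all tested genes were higher and 13.5% lower. Nucleophosmin, encoded by Npm1 (chromosome 11, 33152287 to 33163206), is a chaperone that forms much of the outer nucleolus and carries ribosomal proteins. Npm1 had 722, 695 and 649 CPM in mLN libraries, against 1009, 978 and 871 CPM in spleen libraries, so the mLN libraries all lay lower (0.723-fold, log2 fold change -0.47, SE 0.0621, edgeR adjusted p = 7.58e-06). It had the highest level of the 48 genes per length, 869 ± 39.7 TPM in mLN cells and 1007 ± 86.5 TPM in spleen cells (SD, n = 3 each), where the median of the 48 genes over all libraries was 52.6 TPM. Mouse Npm1 has processed pseudogenes, but its expected counts were whole numbers in all 6 libraries, so no sharing of reads in fractions between copies showed. Whether reads of other copies were counted with it was not tested. Mybbp1a, a MYB-binding protein of the nucleolus, had the smallest p of the 48 genes. Mybbp1a (chromosome 11, 72441355 to 72451768) had 310, 318 and 320 CPM in mLN libraries, against 198, 207 and 198 CPM in spleen libraries (1.57-fold, log2 fold change 0.65, SE 0.0596, edgeR adjusted p = 7.62e-08), and the gap between the groups was many times the spread within them. Nucleolin, encoded by Ncl, binds the precursor RNA. Ncl had 748, 740 and 649 CPM in mLN libraries, against 779, 753 and 701 CPM in spleen libraries, with overlapping groups (log2 fold change -0.06, edgeR adjusted p = 0.499). Ddx21, an RNA helicase that couples transcription and processing, had 419, 404 and 373 CPM in mLN libraries, against 367, 398 and 375 CPM in spleen libraries, also overlapping (log2 fold change 0.07, edgeR adjusted p = 0.441). Nolc1, a chaperone of snoRNPs, had a log2 fold change of 0.20 (edgeR adjusted p = 0.052).

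The snoRNP proteins gave 1 higher gene among 7, a share near the 16.1% of all tested genes, and this count varied with the correction, with 3 higher with the length trend removed, 4 with the length and GC trends removed, and 0 higher and 1 lower with the GC trend removed. Box C/D snoRNPs methylate ribosomal RNA and box H/ACA snoRNPs convert uridine to pseudouridine. The box C/D methyltransferase fibrillarin, encoded by Fbl, had 129, 142 and 145 CPM in mLN libraries, against 120, 116 and 127 CPM in spleen libraries, without overlap but short of the threshold (log2 fold change 0.20, SE 0.0749, edgeR adjusted p = 0.0541). The call of Fbl passed without mLN replicate 1 (0.0356) or without spleen replicate 3 (0.0468). The box C/D scaffold gene Nop56 had 213, 218 and 225 CPM in mLN libraries, against 223, 217 and 235 CPM in spleen libraries (log2 fold change -0.04, edgeR adjusted p = 0.7). Its partner Nop58 had 131, 111 and 104 CPM in mLN libraries, against 121, 133 and 116 CPM in spleen libraries (log2 fold change -0.09, edgeR adjusted p = 0.473). For both scaffolds the groups overlapped. Rrp9, a protein of the box C/D particle that guides early cleavage of the precursor, was the called gene, with a log2 fold change of 0.38 (SE 0.108, edgeR adjusted p = 0.0113). That call was lost without mLN replicate 3 (0.12), without spleen replicate 2 (0.0792) or with the GC trend removed (0.29), and Rrp9 overlaps Parp3 on the opposite strand over 987 nt. Of the box H/ACA genes, the pseudouridine synthase gene Dkc1 had a log2 fold change of -0.09 (edgeR adjusted p = 0.446) and Nhp2 one of -0.19 (0.265). Gar1 had 26.2, 18.02 and 22.4 CPM in mLN libraries, against 16.4, 18.3 and 17.1 CPM in spleen libraries, where mLN replicate 2 fell among the spleen values (log2 fold change 0.36, SE 0.153, edgeR adjusted p = 0.081). Without that library the adjusted p of Gar1 was 0.0285.

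In the small subunit processome 3 of 11 genes were higher, 1 was lower and 7 did not pass. Of all tested genes 16.1% were higher and 13.5% lower. Nol6, a core processome protein, had 95.7, 100 and 112 CPM in mLN libraries, against 63.4, 63.2 and 67.2 CPM in spleen libraries (1.59-fold, log2 fold change 0.67, SE 0.0856, edgeR adjusted p = 5.04e-06). Nat10, which acetylates cytidines in the small subunit RNA, had 98.1, 98.5 and 97.3 CPM in mLN libraries, against 76.3, 64.0 and 70.1 CPM in spleen libraries (1.40-fold, log2 fold change 0.48, SE 0.0854, edgeR adjusted p = 1.81e-04). Neither overlapped between the groups on CPM. In TPM the Nat10 groups did overlap (37.02 to 45.35 in mLN libraries and 24.26 to 45.96 in spleen libraries). Its call was lost on log2(TPM + 1), centred (limma adjusted p = 0.622) or not (0.207). The large scaffold Utp20 had 128, 120 and 120 CPM in mLN libraries, against 102, 100 and 89.4 CPM in spleen libraries (1.26-fold, log2 fold change 0.33, SE 0.0789, edgeR adjusted p = 0.00284), again without overlap. The subcomplex that joins ribosomal DNA transcription to processing had 4 listed genes (Heatr1, Utp4, Wdr43 and Wdr75). None of them was called higher without correction, where 16.1% of all tested genes were. With so few genes this does not set the subcomplex apart. Wdr43 was called higher with the length and GC trends removed (log2 fold change 0.19, edgeR adjusted p = 0.0139). Utp4, known as cirhin and mutated in a human liver disease, had 53.2, 57.0 and 54.4 CPM in mLN libraries, against 69.1, 69.98 and 65.5 CPM in spleen libraries, lower in every mLN library (0.804-fold, log2 fold change -0.31, SE 0.0848, edgeR adjusted p = 0.00716). Wdr43 had 150, 151 and 151 CPM in mLN libraries, against 155, 143 and 144 CPM in spleen libraries (log2 fold change 0.03, edgeR adjusted p = 0.82). Wdr75 had 63.5, 68.9 and 58.5 CPM in mLN libraries, against 71.5, 67.3 and 71.8 CPM in spleen libraries (log2 fold change -0.14, edgeR adjusted p = 0.245). The groups overlapped for Wdr43 and Wdr75, and the log2 fold change of Heatr1, of the same subcomplex, was 0.07 (edgeR adjusted p = 0.497). The other processome genes that did not pass had log2 fold changes of -0.14 (Utp14a), -0.09 (Ddx10), 0.10 (Nop14) and 0.20 (Noc4l).

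The large subunit assembly factors gave 7 higher genes, 3 lower genes and 7 that did not pass, where 16.1% of all tested genes were higher and 13.5% lower. Urb1, a scaffold of the early precursor known from yeast, had 86.4, 89.3 and 91.1 CPM in mLN libraries, against 55.4, 49.7 and 51.5 CPM in spleen libraries (1.70-fold, log2 fold change 0.77, SE 0.0844, edgeR adjusted p = 7.51e-07), with no overlap. Urb2, likewise known from yeast, had 42.8, 41.2 and 38.2 CPM in mLN libraries, against 32.7, 36.3 and 28.4 CPM in spleen libraries (log2 fold change 0.32, SE 0.115, edgeR adjusted p = 0.037). The Urb2 groups did not overlap either, but its call was lost without mLN replicate 1 (0.138), mLN replicate 2 (0.1003), spleen replicate 1 (0.0831) or spleen replicate 3 (0.179). Urb2 shares 26998 nt on the same strand with the gene model Gm20388. The expected counts of Urb2 were whole numbers in all 6 libraries, so no sharing of its reads in fractions showed. Whether reads of one gene were counted with the other was not tested. Noc2l, a shuttling factor of the pre-ribosome, had 192, 203 and 205 CPM in mLN libraries, against 142, 136 and 162 CPM in spleen libraries (1.37-fold, log2 fold change 0.45, SE 0.0729, edgeR adjusted p = 7.29e-05). Nop2, an RNA methyltransferase of the large subunit, had 84.3, 83.7 and 79.6 CPM in mLN libraries, against 63.8, 58.6 and 60.3 CPM in spleen libraries (1.36-fold, log2 fold change 0.44, SE 0.0831, edgeR adjusted p = 3.67e-04). For both genes all mLN values were above all spleen values. Rrp1b had 63.7, 65.8 and 65.9 CPM in mLN libraries, against 50.4, 39.6 and 43.4 CPM in spleen libraries (1.47-fold, log2 fold change 0.55, edgeR adjusted p = 1.96e-04). Rrs1, which helps to bring the small ribosomal RNA of the large subunit into the particle, had 44.9, 49.1 and 53.1 CPM in mLN libraries, against 32.7, 32.1 and 36.8 CPM in spleen libraries (1.45-fold, log2 fold change 0.53, edgeR adjusted p = 6.23e-04). These 2 genes did not overlap between the groups. Rrp12, which serves the export of both subunits, had 61.8, 56.3 and 64.4 CPM in mLN libraries, against 48.4, 40.2 and 45.5 CPM in spleen libraries (1.36-fold, log2 fold change 0.45, edgeR adjusted p = 0.00147), also without overlap.

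Genes of one complex were called in opposite directions in this set, though not under every correction. Bop1, Pes1 and Wdr12 encode the PeBoW complex, which processes the precursor of the large subunit. Bop1 had 99.2, 85.3 and 104 CPM in mLN libraries, against 72.5, 65.8 and 85.0 CPM in spleen libraries (log2 fold change 0.37, SE 0.0992, edgeR adjusted p = 0.00701). These per-library values of Bop1 were chosen for print after they were seen, to complete the complex. Pes1 had 88.6, 87.1 and 89.8 CPM in mLN libraries, against 104, 110 and 109 CPM in spleen libraries (0.822-fold, log2 fold change -0.28, SE 0.0769, edgeR adjusted p = 0.00747). Wdr12 had 45.4, 42.8 and 45.2 CPM in mLN libraries, against 60.8, 51.7 and 57.7 CPM in spleen libraries (0.784-fold, log2 fold change -0.35, SE 0.0963, edgeR adjusted p = 0.00812). The groups did not overlap for any of the 3 genes, with Bop1 higher and its partners lower in mLN libraries. The call of Bop1 was lost without spleen replicate 2 (0.0754). With the GC trend removed neither Bop1 (0.15, adjusted p = 0.154) nor Wdr12 (-0.20, 0.0898) passed, and on centred TPM none of the 3 did (0.0878 for Bop1, 0.327 for Pes1 and 0.697 for Wdr12). In the annotation Bop1 overlaps Scx on the opposite strand over 2007 nt. On log2(TPM + 1) without centring, the median of all tested genes was itself shifted by 0.21. Pes1 and Wdr12 had log2 fold changes of 0.01 and 0.10 there, so their direction differed between CPM and this scale. The cause was not tested. Nip7, an assembly factor conserved from yeast, had 32.7, 33.9 and 36.6 CPM in mLN libraries, against 43.3, 45.4 and 39.1 CPM in spleen libraries (log2 fold change -0.31, SE 0.107, edgeR adjusted p = 0.0353). Its groups did not overlap, but the call was lost without mLN replicate 1 (0.123), mLN replicate 2 (0.0908), spleen replicate 1 (0.0836) or spleen replicate 2 (0.137).

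Among the large subunit genes that did not pass were the nucleolar GTPase genes. Gnl3, which encodes nucleostemin, had 96.0, 95.1 and 87.3 CPM in mLN libraries, against 90.2, 87.6 and 85.2 CPM in spleen libraries (log2 fold change 0.08, edgeR adjusted p = 0.5). Gtpbp4 had 133, 126 and 109 CPM in mLN libraries, against 140, 138 and 134 CPM in spleen libraries (log2 fold change -0.16, edgeR adjusted p = 0.127). Gnl3 overlapped between the groups, whereas every Gtpbp4 value was lower in mLN libraries. Nle1, an assembly factor that remodels the precursor, had 34.1, 32.7 and 40.9 CPM in mLN libraries, against 23.9, 28.9 and 36.3 CPM in spleen libraries, with overlap (log2 fold change 0.28, edgeR adjusted p = 0.149, and 0.0211 without spleen replicate 3). The remaining genes had log2 fold changes of -0.16 (Nop16), -0.09 (Ddx18), -0.06 (Gnl2) and -0.03 (Noc3l).

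The fold change went with the length and the base composition of the transcripts. The 19 higher genes had a median transcript length of 3553 nt and a median GC content of 54.2%, the 6 lower genes 2312 nt and 48.01%, and the 23 genes that did not pass 1871 nt and 47.8%. Across the 48 genes, which share the same 6 libraries and are not replicates, log2 fold change correlated with log10 length (Pearson r = 0.412, Spearman rho = 0.411) and with GC content (r = 0.612, rho = 0.612). Over all tested genes the values were 0.237 and 0.370 for length, and 0.193 and 0.2999 for GC content. Of the 12 nucleolar genes with over 55% GC, 9 were higher and 0 were lower, where all tested genes of that class were higher in 26.7% and lower in 4.99%. Of the 11 genes with at most 45% GC, 0 were higher and 2 (18.2%) were lower, where all tested genes of that class were higher in 5.43% and lower in 19.8%, so the share of lower genes was near that of all genes. For both counts of 0, edgeR at an unadjusted p below 0.05, DESeq2 and limma-voom also gave 0. By length, 9 of 11 genes over 4000 nt were higher (37.2% of all tested genes in that class). Of the 11 genes of at most 1500 nt, 1 was higher (2.18% of all tested genes in that class) and 2 were lower (25.4%).

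**Figure D4:**
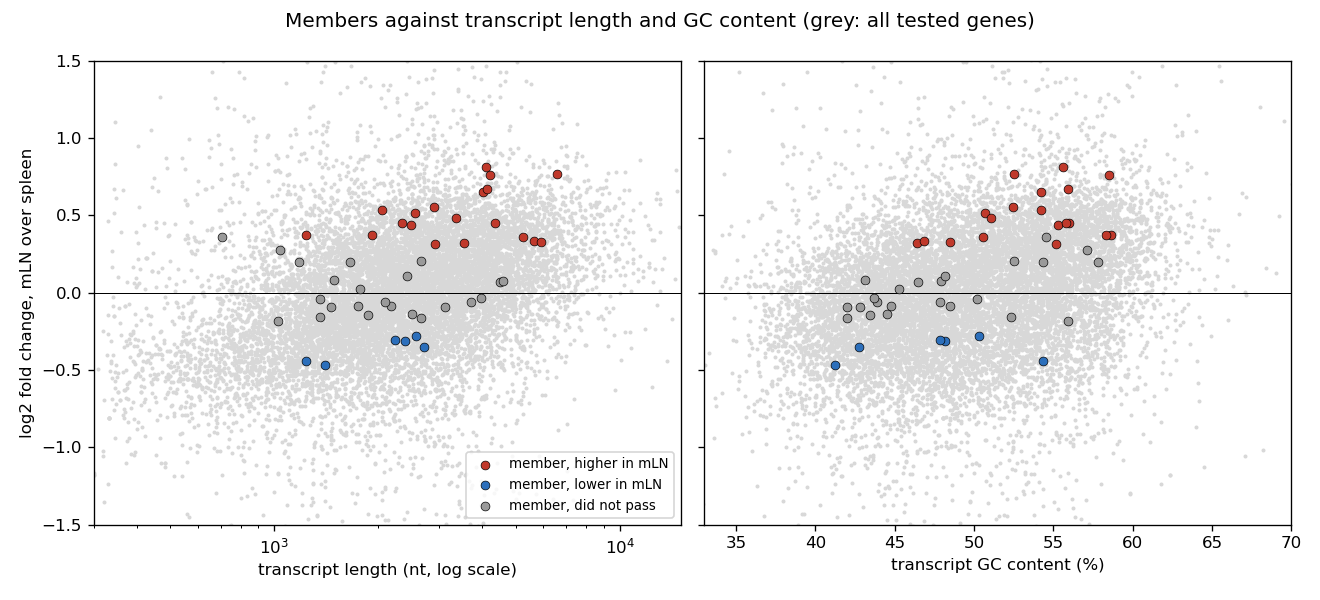
Log2 fold change (mLN over spleen) of the 48 genes against transcript length (log axis) and GC content, over all tested genes in grey, with red for called higher, blue for called lower. Of 12 genes above 55% GC, 9 are called higher.

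When a smooth trend on length was removed from each library, 18 of the 48 genes were higher (11.4% of all tested genes) and 8 were lower (12.1% of all tested genes), with a median log2 fold change of 0.09 against -0.03 over all tested genes. Of the 19 higher genes 15 passed again, and so did all 6 lower genes. The genes that no longer passed were Polr1a (log2 fold change 0.14, adjusted p = 0.16), Utp20 (0.10, 0.402), Rrn3 (0.23, 0.0753) and Urb2 (0.08, 0.669). Fbl (0.35, adjusted p = 0.00152), Gar1 (0.64, 0.00338) and Nle1 (0.45, 0.0221) rose in that fit, and Gtpbp4 (-0.21, 0.0483) and Ncl (-0.17, 0.0351) fell. Of its 26 calls, 19 held with each of the 6 libraries left out in turn. Those of Polr1c, Ncl, Bop1, Gtpbp4, Nip7, Nle1 and Rrp12 did not, with adjusted p up to 0.135, 0.133, 0.0651, 0.192, 0.124, 0.141 and 0.277. Losses came without mLN replicate 1 for Polr1c, Nip7 and Rrp12, without mLN replicate 2 for Gtpbp4 and Nip7, and without mLN replicate 3 for Polr1c, Ncl, Gtpbp4, Nle1 and Rrp12. Losses also came without spleen replicate 1 for Polr1c, Ncl, Gtpbp4, Nip7, Nle1 and Rrp12, without spleen replicate 2 for Ncl, Bop1, Gtpbp4, Nip7, Nle1 and Rrp12, and without spleen replicate 3 for Rrp12. After this correction the correlation with GC content across the 48 genes was r = 0.715. With the GC trend alone removed, 20 genes were higher (18.3% of all tested genes) and 6 were lower (13.7%), but not the same genes. Bop1 (log2 fold change 0.15, adjusted p = 0.154), Rrp9 (0.13, 0.29) and Wdr12 (-0.20, 0.0898) no longer passed, while Ddx21 (0.14, 0.00804), Gnl3 (0.22, 0.0115), Nolc1 (0.17, 0.0338) and Nhp2 (-0.32, 0.0116) did. A correction for length and GC content together, chosen after seeing the data, gave 20 higher genes (11.4% of all tested genes) and 4 lower genes (10.2% of all tested genes), of which 15 and 4 were among those called without correction. Under it Wdr12 (log2 fold change -0.21, adjusted p = 0.0936), Nip7 (-0.27, 0.0531), Bop1 (0.14, 0.235) and Rrp12 (0.14, 0.318) did not pass, while Npm1 fell by 0.14 on the log2 scale (0.0037), Wdr43 rose (0.19, 0.0139), and so did Nop58 (0.20, 0.0312) and Gnl3 (0.35, 2.84e-04).

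**Figure D5:**
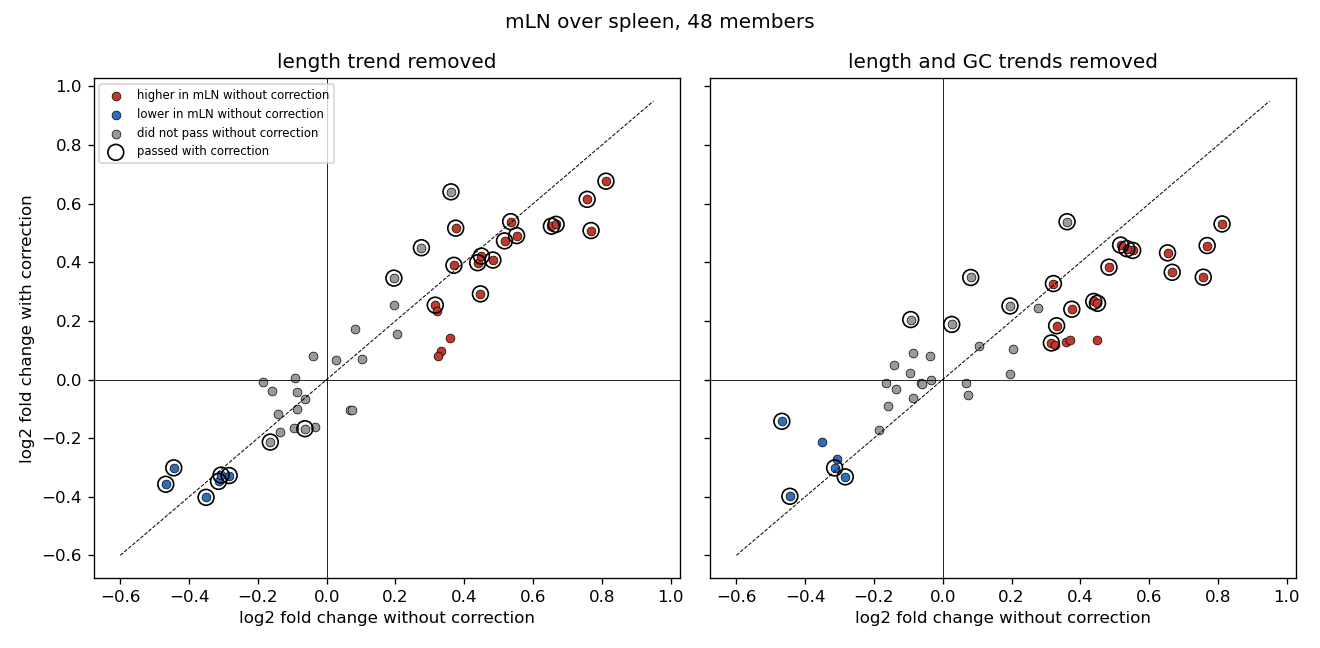
Log2 fold change (mLN over spleen) of the 48 genes without correction (x axis) against the value after removal of the length trend, and of the length and GC trends together (y axes), with circles for genes that passed after correction and the dashed line for equality. Pprc1, Urb1 and Tcof1 stay above 0 after both, at 0.68, 0.51 and 0.61 with the length trend removed.

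On log2(TPM + 1) centred on each library's median, 9 of the 48 genes were higher (6.39% of all tested genes) and 3 were lower (7.58% of all tested genes), and all 12 were also called on counts in the same direction. Without centring, 27 were higher and 0 lower by limma (22.1% and 3.08% of all tested genes), with 1 lower at an unadjusted p below 0.05. On counts, DESeq2 gave 20 and 6 (16% and 14% of all tested genes) and upper-quartile factors 18 and 7 (13.6% and 16.4%). Calls in the same direction on counts, with each correction for length and GC content, and on centred TPM were shared by 12 genes. The 9 higher among them were Pprc1, Tcof1, Urb1, Mybbp1a, Nol6, Rrs1, Noc2l, Nop2 and Ubtf, and the 3 lower were Npm1, Polr1c and Utp4. In TPM, a level per length, Pprc1 averaged 57.8 ± 14.0 in mLN cells and 23.6 ± 2.57 in spleen cells, Tcof1 94.8 ± 9.39 in mLN cells and 48.5 ± 4.35 in spleen cells, and Urb1 20.8 ± 2.64 in mLN cells and 9.79 ± 1.68 in spleen cells (SD, n = 3 each).

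Promoters of 40 of the 48 genes were found in RefSeq (GRCm38.p6; 250 bases before to 50 after each start, 49 windows in all). The E-box CACGTG, bound by MYC and its partner MAX, was searched on both strands, overlaps with other motifs allowed. It lay in 8 of 49 windows (16.3%), against 7.15% of all 32851 windows of the table, expressed genes or not. The genes with it were Mybbp1a, Nop2, Rrn3 and Utp20 among the higher genes, Pes1 and Utp4 among the lower genes, and Nle1 and Wdr43 among those that did not pass. CCGGAAGT, bound by ETS factors, lay in 18.4% of the windows (3.89% of all), GGGCGG, bound by SP1, in 73.5% (35.7% of all), and the palindromic NRF1 motif in 0 of 49 (0.971% of all). The matches describe letters only. Below are a higher and a lower gene with the E-box (Mybbp1a, Utp4) and a higher and a lower gene without it (Urb1, Polr1c), with the E-box in capitals. The windows are chr11:72441077-72441376 (plus strand) for Mybbp1a, chr16:90810364-90810663 (minus strand) for Urb1, chr8:106893390-106893689 (plus strand) for Utp4 and chr17:46247996-46248295 (minus strand) for Polr1c.
Mybbp1a: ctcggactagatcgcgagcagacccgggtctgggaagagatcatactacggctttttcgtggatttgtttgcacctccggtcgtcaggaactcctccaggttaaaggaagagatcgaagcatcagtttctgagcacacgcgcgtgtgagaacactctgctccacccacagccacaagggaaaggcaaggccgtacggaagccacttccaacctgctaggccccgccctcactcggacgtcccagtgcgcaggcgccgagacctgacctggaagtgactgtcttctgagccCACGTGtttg
Urb1: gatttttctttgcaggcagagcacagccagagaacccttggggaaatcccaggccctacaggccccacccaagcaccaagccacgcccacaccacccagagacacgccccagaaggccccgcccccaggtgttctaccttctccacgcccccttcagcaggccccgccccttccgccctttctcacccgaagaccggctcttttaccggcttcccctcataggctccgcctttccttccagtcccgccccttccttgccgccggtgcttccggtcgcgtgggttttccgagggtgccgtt
Utp4: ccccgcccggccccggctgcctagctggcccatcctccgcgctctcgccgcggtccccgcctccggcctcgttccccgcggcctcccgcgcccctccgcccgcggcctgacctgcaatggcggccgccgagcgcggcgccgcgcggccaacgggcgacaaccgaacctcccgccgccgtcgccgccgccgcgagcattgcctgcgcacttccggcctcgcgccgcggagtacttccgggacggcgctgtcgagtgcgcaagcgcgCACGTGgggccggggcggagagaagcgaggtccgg
Polr1c: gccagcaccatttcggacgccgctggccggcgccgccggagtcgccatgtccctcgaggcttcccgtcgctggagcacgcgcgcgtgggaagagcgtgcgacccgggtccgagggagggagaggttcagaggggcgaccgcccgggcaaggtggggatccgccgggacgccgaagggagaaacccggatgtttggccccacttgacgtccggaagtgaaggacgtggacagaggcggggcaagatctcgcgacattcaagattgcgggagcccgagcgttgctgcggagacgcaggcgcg
The E-box thus stood in promoters of genes that were higher (Mybbp1a) and lower (Utp4) in mLN cells, and it begins 41 bases into the transcribed side of the Mybbp1a start and 16 bases into that of Utp4.

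Other genes of ribosome production, from lists chosen by function, went in both directions across the lists. Beside the counts that follow, 16.1% of all tested genes were called higher and 13.5% lower. Myc had 91.5, 96.6 and 110 CPM in mLN libraries, against 60.1, 59.4 and 60.3 CPM in spleen libraries, with no overlap (1.66-fold, log2 fold change 0.73, SE 0.0878, edgeR adjusted p = 2.29e-06). Of 9 tested genes of the MYC network 1 was higher, Myc itself, and 2 were lower. The lower genes were Mxi1, an antagonist of MYC (log2 fold change -0.50), and Mlx (-0.28). The call of Mlx was lost with the length trend removed (edgeR adjusted p = 0.17). On centred TPM neither Mxi1 (limma adjusted p = 0.0579) nor Mlx (0.432) passed. Of 41 further small subunit factors 6 were higher and 11 were lower (median log2 fold change -0.10), with Pwp2 at 77.1 ± 2.52 CPM in mLN cells and 52.9 ± 4.57 CPM in spleen cells and Emg1, an RNA methyltransferase, at a log2 fold change of -0.36. Of 44 further large subunit factors 9 were higher and 7 were lower (median 0.02, and -0.03 with upper-quartile factors). Mdn1, a giant ATPase that removes assembly factors, had 678, 648 and 613 CPM in mLN libraries, against 418, 416 and 426 CPM in spleen libraries (log2 fold change 0.62, edgeR adjusted p = 7.62e-08), and Nsa2 had 292, 259 and 249 CPM in mLN libraries, against 380, 369 and 361 CPM in spleen libraries (-0.47, 1.02e-05). Neither overlapped between the groups.

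Of 28 further genes of Pol I and Pol III that were tested, 6 were higher and 2 were lower (16.1% and 13.5% of all tested genes). With upper-quartile factors 3 were higher and 2 were lower (13.6% and 16.4% of all tested genes). The lower genes were Polr1d, whose product pairs with that of Polr1c in Pol I and Pol III, and Polr2k, a small subunit of all nuclear RNA polymerases. The call of Polr2k, a transcript of 516 nt, was lost with the length trend removed (log2 fold change -0.28, adjusted p = 0.397), the GC trend removed (-0.44, 0.143) or both (-0.04, 0.934). Polr1d had 67.3, 68.2 and 69.2 CPM in mLN libraries, against 96.6, 85.0 and 93.4 CPM in spleen libraries (log2 fold change -0.43, SE 0.0833, edgeR adjusted p = 5.04e-04), so both partners were lower in every mLN library. Gtf3c1, of the Pol III factor that binds transfer RNA genes, was higher (log2 fold change 0.62, edgeR adjusted p = 1.19e-05). Among 12 further snoRNP genes 0 were higher and 3 were lower, among them Nop10 (-0.51) and Snu13 (-0.40), which are core proteins of box H/ACA and box C/D snoRNPs. With the length and GC trends removed, the calls of Nop10 (edgeR adjusted p = 0.0642) and Snu13 (0.218) were lost. That of Snu13 was also lost on centred TPM (limma adjusted p = 0.371). A list of 14 tested genes held the nuclear exosome, which degrades precursor fragments, its partners and the separate exonuclease gene Xrn2. Of these 0 were higher and 2 were lower, Exosc7 (-0.38) and Xrn2 (-0.26). The call of Exosc7 was lost with the length trend removed (edgeR adjusted p = 0.167), and that of Xrn2 with the GC trend removed (0.0815). On centred TPM neither passed (limma adjusted p = 0.0656 for Exosc7 and 0.0553 for Xrn2). Of 14 tested proliferation genes 0 were higher and 2 were lower, Pcna (-0.52) and Mcm7 (-0.40). Higher genes at an unadjusted p below 0.05 in edgeR numbered 1, 1 and 2 in these snoRNP, exosome and proliferation lists, and DESeq2 and limma-voom called 0 higher in each. Of 7 tested genes of the Trp53 pathway, Trp53 itself was higher (0.39) and its target Ccng1 lower (-0.40).

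The cytosolic ribosomal protein genes, whose products the nucleolar factors assemble, went against the sum of the 48 genes. Of 82 tested, edgeR called 0 higher (also 0 at an unadjusted p below 0.05, with DESeq2 and with limma-voom) and 78 lower, with a median log2 fold change of -0.53, and with the length trend removed 1 was higher and 59 were lower, with a median of -0.24. They took 8.39% ± 0.419 of counts in mLN cells and 11.7% ± 0.101 in spleen cells (SD, n = 3 each), where the 48 nucleolar genes took 0.641% in mLN cells and 0.594% in spleen cells.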

How the data were processed

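Polyadenylated RNA was sequenced from libraries made with a directional kit per the labels' protocols. The submitters' processing notes name STAR, RSEM and mm10. No source used here gives tool versions, the gene annotation or how strand was counted. Expected counts as deposited are unnormalized RSEM estimates, per the file headers. TPM values, and the FPKM values not used here, were scaled by length by the authors. The headers also give each gene's length in nucleotides.

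The 48 members, their roles, the other gene lists and the rule for the genes given with values per library were chosen with earlier results of these data known. That rule takes up to 12 called genes per direction with the smallest adjusted p and no overlap, the 2 genes per role with the highest TPM, and up to 10 genes whose call changed with the length correction. Other genes are given by log2 fold change.

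Expected counts were rounded, filtered with filterByExpr (12486 of 55487 genes left) and scaled by TMM factors. The test was edgeR's two-sided robust quasi-likelihood F test with tissue as the only term. Adjustment was Benjamini-Hochberg over all genes tested, at 0.05. Standard errors were taken as the absolute log2 fold change divided by the root of F. Trends on length or GC content were removed as per-library offsets (loess span 0.3). Fold changes from TPM are on the log2(TPM + 1) scale, tested with limma, and understate changes of low genes. Lengths are means over libraries, and coordinates and GC content came from GENCODE's GRCm38 annotation. Shares of counts, correlations and motif shares are descriptions without a test. The test and the length correction were tried on simulated counts.

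Each pair of replicates differed beyond counting noise (chi-square per degree of freedom 5.60 to 12.1), so all 6 libraries were counted. Alternatives were DESeq2, limma-voom, RLE or upper-quartile scaling, TPM scales, other filters, a threshold of 0.01, the replicate block, and each library left out. Versions were edgeR 4.0.16, DESeq2 1.42.0 and limma 3.58.1 in R 4.3.3, with Python 3.11.15, numpy 2.4.6, pandas 2.3.3, scipy 1.17.1 and matplotlib 3.10.9.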

Additional observations from a re-analysis of the deposited data

How the results depend on the processing

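The 19 higher and 6 lower nucleolar genes, 25 in all, became 9, 3 and 12 on centred log2(TPM + 1), and 9, 3 and 12 with a pseudocount of 0.1, while the count over all genes fell to 1745 and 1697, against 3699. On uncentred log2(TPM + 1), 0 genes were lower. On that scale the median log2 fold change was 0.21 over all tested genes and -0.235 over the cytosolic ribosomal protein genes. Of the 19 genes below 0 on counts, 14 were above 0 on it. The 5 of these called on either scale were Nop56 (0.30), Dkc1 (0.40), Ddx18 (0.26), Pes1 (0.0068) and Wdr12 (0.10). The cause was not tested. With the length and GC trends removed, Nop58 was at 0.20. Leaving out 1 library gave 17 to 19 higher and 5 to 6 lower genes, 22 to 25 in all (20 to 27 with the length trend removed), and 2824 to 3680 calls over all genes. Of the 25 calls, 20 held in every such omission. RLE factors, limma-voom, no filter, at least 10 CPM in 3 libraries and the omission of ribosomal protein, mitochondrial and rRNA genes kept the call of each of the 48 genes. DESeq2 gave 20 and 6, upper-quartile factors 18 and 7, and a threshold of 0.01 gave 16 and 5. The members' share differed by 0.0473 percentage points of counts (0.0418 to 0.0530 with 1 library left out) and by 0.0713 of TPM.

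Same-numbered mLN and spleen libraries did not deviate together (correlations 0.0223, 0.0023 and 0.0652), and not every library correlated best with its own number, so the replicate number was not taken as a pairing. As a block it gave 23 higher and 7 lower genes, 30 in all, and 4706 over all genes, and 31 nucleolar genes with the length trend removed, where Ddx21 was at -0.10. With 3 libraries a group, changes of low-count genes such as Gar1 are poorly resolved.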
